A study of Mus musculus with 3 samples.

Results

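The photoreceptor miRNA cluster studied here comprises 3 members, miR-183 (MIMAT0000212), miR-96 (MIMAT0000541) and miR-182 (MIMAT0000211), out of 602 miRNAs measured in sorted Müller glia (MG) of the mouse retina. The 3 rows were taken by their miRBase identifiers, because these miRNAs are known from photoreceptors and could serve as a gauge of photoreceptor RNA in sorted MG. MG were labeled with tdTomato in adult Rlbp1-CreER:tdTomato mice, in which tamoxifen (75 mg/kg on 3 days according to the labels) activates a Cre driven by the Rlbp1 promoter. The brightest tdTomato+ cells were sorted, and their mature miRNAs were quantified with NanoString nCounter, an assay that counts tagged molecules without amplification. The wild type sample pooled 40 undamaged retinas. The extraction text in the labels is the same for all samples and speaks of light damage, also for this one. The light damage (LD) sample pooled 44 retinas taken a week after exposure to bright light, and these mice had been crossed to an albino strain and carried the leucine variant of RPE65, an enzyme of the visual cycle. The Dicer-cKO sample pooled 26 retinas of Rlbp1-CreER:tdTomato:Dicer f/f mice a month after Dicer deletion, in which the enzyme that makes mature miRNAs is removed from MG but not from other cells. The wild type and Dicer-cKO samples were measured in an earlier study and normalized again with the LD sample, so in comparisons with the LD sample strain, measurement series and condition cannot be told apart. There was 1 sample per condition, so neither a spread between replicates nor a test could be obtained. All intervals below are 95% intervals from the counts left after background subtraction. They cover the counting error of these counts only. The error of the background itself is left out, so they are too narrow, most of all at low counts.

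The cluster is a group of miRNAs made from neighboring hairpins of a common transcript, best known from sensory cells such as photoreceptors, inner ear hair cells and olfactory neurons. In the retina it is abundant in photoreceptors and is needed for their maturation and survival, and its levels in the whole retina are known to follow light and darkness. A mature miRNA is loaded into an Argonaute protein and recognizes its target mRNAs mainly through its seed, a short stretch near its 5′ end. MG are not known as a main source of these miRNAs, and the fine processes of MG wrap the photoreceptor cell bodies.

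The mature sequences are shown because the members differ in their seeds and because the probes for miR-183 and miR-182 had to tell related sequences apart. They are the 5p arms in RefSeq (GRCm38.p6), 5′ to 3′, with the seed (bases 2 to 8) in capitals. The 5p arm was assumed for each member, since the members were named without an arm.

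miR-183: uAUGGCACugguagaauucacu

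miR-96: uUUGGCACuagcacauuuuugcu

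miR-182: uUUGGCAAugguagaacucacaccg

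The seeds of miR-183 and miR-96 differed at 1 base, A2U, and those of miR-96 and miR-182 at 1 base, C8A, with positions counted from the 5′ end. miR-96 and miR-182 therefore shared bases 2 to 7. Aligned from the 5′ end without gaps, miR-183 and miR-182 had the same base at 18 of 22 positions (81.8%), and miR-183 and miR-96 at 13 of 22 (59.1%). None of the 1738 mature miRNAs in the RefSeq table other than miR-1271-5p shared bases 2 to 8 with a member, and it shared them with miR-96. The hairpins lie on the minus strand of chromosome 6, in the order of transcription Mir183 (chr6:30169668-30169737), Mir96 (chr6:30169446-30169551) and Mir182 (chr6:30165918-30165992). Mir183 and Mir96 are 116 bases apart, whereas Mir182 lies a further 3453 bases downstream. All 3 hairpins lie within the long non-coding RNA gene Mirc35hg (chr6:30158640-30174125), and the nearest protein-coding genes are Nrf1 and Ube2h.

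The values are deposited signals, namely counts of molecules that the authors had corrected for background and scaled to 4 housekeeping mRNAs. The scaling multiplied the counts by 1.15 in wild type glia, by 2.04 after LD and by 4.42 in Dicer-cKO glia. The total miRNA signal was 783889 in wild type glia, 468576 after LD and 195642 in Dicer-cKO glia. Before scaling, these totals corresponded to 678751, 230245 and 44290 counts, respectively. The spiked ERCC positive controls, which were not scaled, went the other way, with a geometric mean of 1163 in wild type, 1317 after LD and 1649 in Dicer-cKO glia. The highest of the 8 negative controls, put on the same scale, reached 27.0 in wild type glia, 64.1 after LD and 171 in Dicer-cKO glia. Of the 602 miRNAs, 214, 113 and 73 lay above it in the respective sample.

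Of the members above the negative controls, miR-96 differed the most between samples. Its signal was 285 (interval 250 to 322) in wild type glia, 626 (559 to 701) after LD and 3433 (3197 to 3685) in Dicer-cKO glia. As deposited, the Dicer-cKO sample was thus highest and the wild type sample lowest, and the counting intervals of the 3 samples did not overlap. Among the 602 miRNAs miR-96 ranked 68th by signal in wild type glia, 45th after LD and 14th in Dicer-cKO glia. It stood 10.5, 9.76 and 20.1 times above the highest negative control.

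miR-183 had a signal of 363 (324 to 405) in wild type glia, 414 (360 to 476) after LD and 1811 (1641 to 1997) in Dicer-cKO glia. The intervals of wild type glia and LD overlapped, whereas that of Dicer-cKO glia lay above both. Its rank moved from 62nd in wild type glia to 49th after LD and 21st in Dicer-cKO glia, and it stood 13.4, 6.46 and 10.6 times above the highest negative control.

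miR-182 did not rise above the highest negative control in any sample, although its hairpin belongs to the same cluster. Its signal was 2 in wild type glia, 2 after LD and 104 (68.0 to 158) in Dicer-cKO glia, which corresponded to 1.38, 1 and 23.6 counts before scaling. The LD value is the floor that 356 of the 602 miRNAs shared in that sample. In Dicer-cKO glia it lay at 0.612 times the highest negative control, where it exceeded the other 7 negative controls. For this reason no ratio is given for miR-182, and it added 1.94% or less to the summed signal of the cluster in each sample. The probe sequences and their efficiencies are not given in the sources used here, so that levels of different miRNAs are not compared as amounts of molecules.

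**Figure D1:**
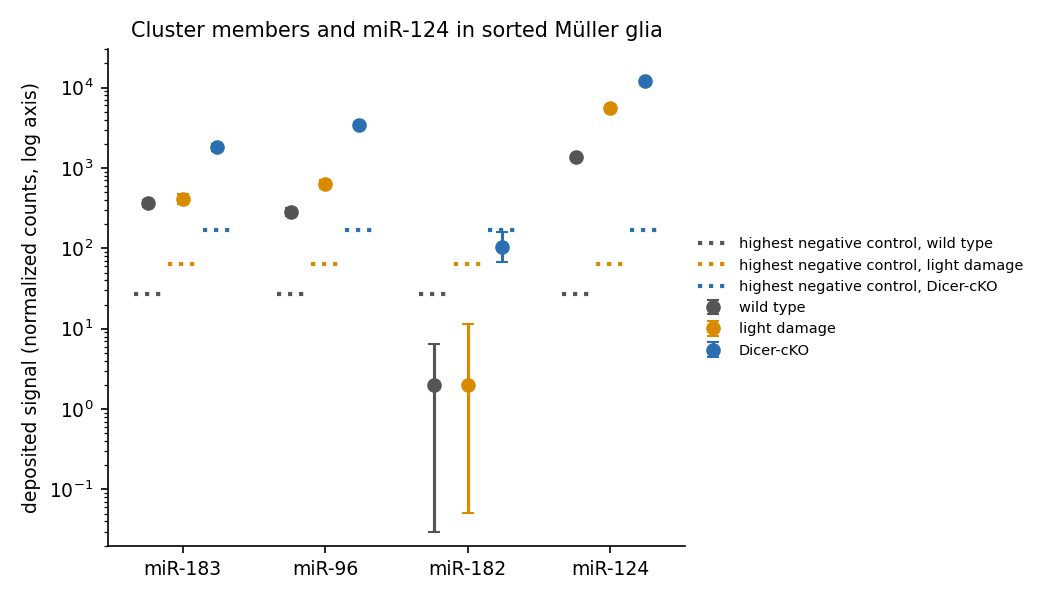
Deposited signal (normalized counts, log axis) of the 3 cluster members and of miR-124 in wild type, light damage and Dicer-cKO glia. Points are the single pooled samples, bars are 95% counting intervals, and dotted lines mark the highest negative control of each sample (27.0, 64.1 and 171). miR-183 and miR-96 lie above that line in all samples and miR-182 lies below it in all samples.

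The first comparison addressed whether the cluster differed between MG after LD and undamaged MG. The paper reports that MG of the peripheral retina stayed negative for GFAP, its marker of reactivity, so the LD sample was not of reactive MG alone. The summed signal of the 3 members was 650 (597 to 705) in wild type glia and 1042 (954 to 1136) after LD. The sum was 1.60-fold (1.42 to 1.81) higher after LD as deposited. The ratio was below 1 with Rpl19 as the only reference (0.937), without scaling (0.910) and with the 6 highest ERCC control rows as the reference (0.803). Without scaling its interval (0.807 to 1.03) included 1, and with Rpl19 or the ERCC rows no interval was computed. Of the difference of 392, miR-96 accounted for 341 and miR-183 for 51. miR-96 was 2.20-fold (1.86 to 2.62) higher after LD, and its ratio stayed above 1 under all 12 scalings, between 1.10 and 5.64. For miR-183 the ratio was 1.14 (0.955 to 1.37), an interval that includes 1, and the scalings gave values from 0.571 to 2.93, with 8 of 12 above 1.

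The table as a whole shifted too, by an amount that the scaling sets. The 104 miRNAs with a mean signal of at least 100 over the 3 samples had a median ratio of LD to wild type of 0.613 as deposited, and between 0.307 and 1.58 over the 12 scalings. As deposited, 19 of them (18.3%) were at least 2-fold higher after LD. miR-96 was among these and miR-183 was not, that is 1 of the 2 members that passed the limit on low values. miR-182, with a mean of 36, did not pass it. Relative to the median miRNA, which no scaling can alter, miR-96 was 3.58-fold and miR-183 was 1.86-fold higher after LD. By the size of the ratio they ranked 19th and 31st of 104.

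The comparison of Dicer-cKO with wild type glia addressed what happened to the cluster after the removal of Dicer from MG. The summed signal was 5348 (5052 to 5659) in Dicer-cKO glia, 8.23-fold (7.45 to 9.12) that of wild type glia, and this ratio stayed above 1 under all 12 scalings, between 1.52 and 33.9. miR-96 was 12.0-fold (10.5 to 14.0) higher, with values from 2.22 to 49.6 over the scalings. miR-183 was 4.99-fold (4.30 to 5.81) higher as deposited. Its ratio fell slightly below 1 with the ERCC rows (0.919) and with the nmiR control rows above 100 (0.953) as the reference. No interval was computed for these references, so a lower level is not shown. Before any scaling, miR-96 had 246 counts in wild type glia and 777 in Dicer-cKO glia, and miR-183 had 314 and 410, although the total miRNA count of the Dicer-cKO sample was the lower one.

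Over the same 104 miRNAs the median ratio of Dicer-cKO to wild type was 0.388 as deposited, and between 0.0716 and 1.60 over the scalings. As deposited, 20 miRNAs (19.2%) were at least 2-fold higher in Dicer-cKO glia. Both members that passed the limit were among them. miR-96 had the 2nd largest ratio of the 104 and miR-183 the 9th. Relative to the median miRNA they were 31.0-fold and 12.8-fold higher. The 23 miRNAs with a signal of at least 3000 in wild type glia, which served as the abundant miRNAs of MG, were chosen by the wild type sample, so that lower values in the other samples are partly built into the list. As deposited, all 23 were lower in Dicer-cKO glia, with a median ratio of 0.260, although the number fell to 10 when the samples were brought to the same total miRNA signal. Over all 104 miRNAs 79 were lower. After LD 21 of them were lower, with a median ratio of 0.499, compared with 73 of all 104, and the fewest, 6, were lower at the same total without the row that was highest after LD. The signal of the cluster was 0.0898% of the summed signal of these miRNAs in wild type glia, 0.256% after LD and 3.78% in Dicer-cKO glia. Set against them, the cluster was 2.85-fold (2.53 to 3.22) higher after LD and 42.0-fold (38.0 to 46.6) higher in Dicer-cKO glia than in wild type glia, measures in which the scaling factor of a sample cancels but which the choice of the list by its wild type signal can raise. These abundant miRNAs include the row that was highest after LD, and without it the values were 4.78-fold (4.24 to 5.41) and 44.1-fold (39.9 to 48.9), a denominator chosen after seeing the data.

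**Figure D2:**
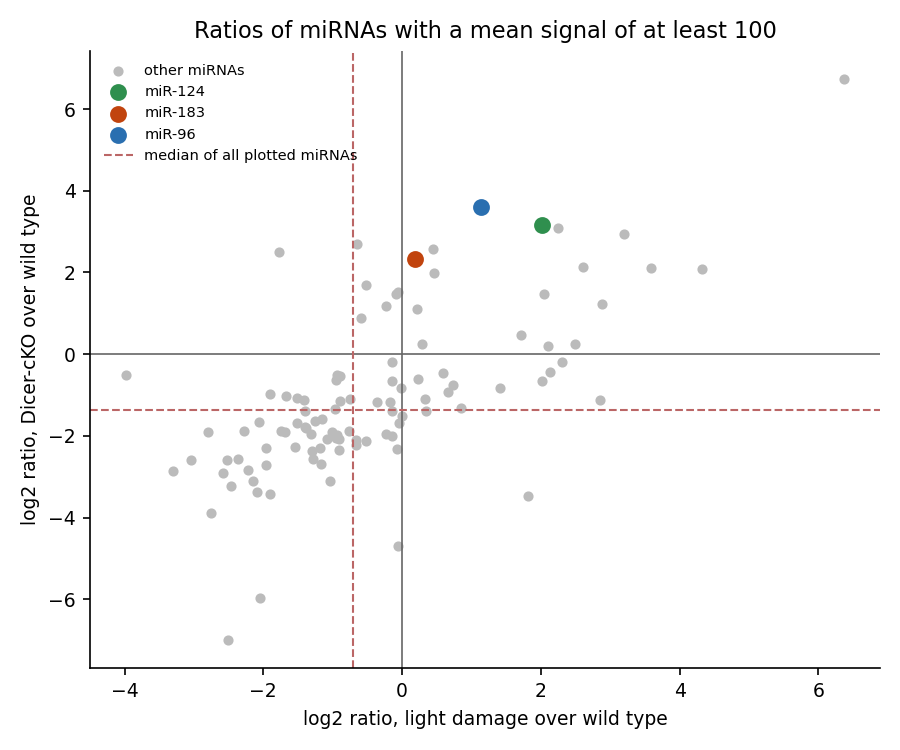
Log2 ratios of LD over wild type (x axis) and Dicer-cKO over wild type (y axis) for the 104 miRNAs with a mean signal of at least 100, as deposited. Both axes share the wild type sample. Dashed lines mark the medians (-0.71 and -1.36), and miR-96, miR-183 and miR-124 lie above both medians.

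Between the manipulated samples, the summed signal was 5.13-fold (4.63 to 5.70) higher in Dicer-cKO glia than after LD as deposited. Over the 12 scalings this ratio lay between 0.750 and 12.3. It fell below 1 only with the nmiR control rows as the reference, which gave 0.750. The ratio was 5.48 (4.80 to 6.27) for miR-96 and 4.37 (3.68 to 5.19) for miR-183, and the same reference turned both, to 0.801 and 0.639. The median ratio over all 104 miRNAs was 0.598 as deposited and between 0.0873 and 1.43 over the scalings. With a limit of 30 on the mean signal, 25.8% of miRNAs were at least 2-fold higher in Dicer-cKO glia than after LD. At the limit of 100, 6.73% were at least 3-fold higher, and 13 of the 104 (12.5%) were at least 2-fold higher. Both members that passed the limit were among these 13, with the 4th (miR-96) and the 6th (miR-183) largest ratio.

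**Figure D3:**
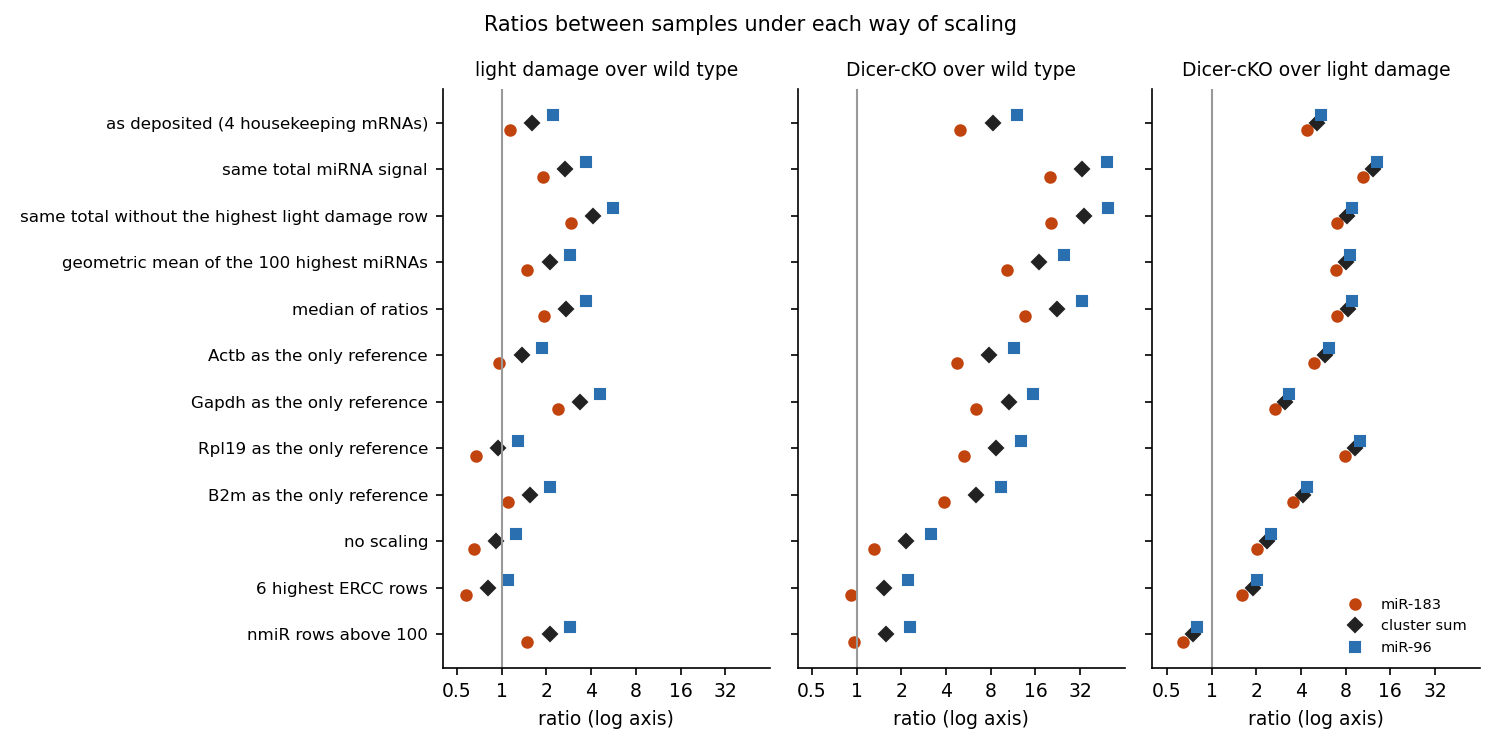
Ratios (log axis) of miR-183, miR-96 and the cluster sum in the 3 comparisons, as deposited and under 11 other ways of scaling the samples. The vertical line marks a ratio of 1. The ratios of miR-96 and the sum in Dicer-cKO over wild type glia lie to the right of it under every scaling, and those of miR-183 in LD over wild type glia lie on both sides.

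The reference rows behind these scalings did not move together. From wild type glia to LD, the deposited signal of Rpl19 went from 742 to 1269 and that of Gapdh from 799 to 380, while Actb went from 8068 to 9542 and B2m from 389 to 404. In Dicer-cKO glia the signals were 701 for Rpl19, 622 for Gapdh, 8481 for Actb and 502 for B2m. After LD, 1 unnamed miRNA row held 36.9% of the miRNA signal, compared with 3.05% in wild type glia and 5.61% in Dicer-cKO glia.

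The share of the cluster in the miRNA signal of its own sample does not depend on the scaling. It was 0.0829% (0.0761 to 0.0899) in wild type glia, 0.222% (0.204 to 0.242) after LD and 2.73% (2.58 to 2.89) in Dicer-cKO glia. The order of the samples was the same as by signal, and no intervals overlapped. A share also rises when the other miRNAs fall. Before scaling, the cluster had 562 counts in wild type glia, 512 after LD and 1210 in Dicer-cKO glia. All miRNAs together had 678751, 230245 and 44290 counts. Without the row that was highest after LD, the shares were 0.0855%, 0.352% and 2.90%.

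The members did not move in proportion to each other. The ratio of miR-96 to miR-183 was 0.785 (0.660 to 0.929) in wild type glia, 1.51 (1.26 to 1.81) after LD and 1.90 (1.68 to 2.14) in Dicer-cKO glia. The scaling factor of a sample cancels when these ratios are compared. Probe efficiencies cancel only if they were the same in both samples. This was not tested, and the LD sample belonged to a different measurement series. The ratio was 1.93-fold (1.4999 to 2.48) higher after LD and 2.41-fold (1.96 to 2.99) higher in Dicer-cKO glia than in wild type glia, and 1.25-fold (1.01 to 1.56) higher in Dicer-cKO glia than after LD. Accordingly, miR-183 held 55.8% (51.7 to 60.0) of the signal of the cluster in wild type glia, 39.7% (35.6 to 44.2) after LD and 33.9% (31.2 to 36.6) in Dicer-cKO glia, and miR-96 held 43.8% (39.6 to 48.0), 60.1% (55.8 to 64.4) and 64.2% (61.4 to 66.9).

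miR-124, the best known neuronal miRNA, was the only miRNA outside the cluster that could be named, from the study's text and not from a table of names. Its row was chosen for being higher than wild type in both other samples, with the largest ratio in Dicer-cKO glia, so that these directions follow from the choice and its values are given as a description. Its signal was 1354 in wild type glia, 5506 after LD and 12106 in Dicer-cKO glia, and its ratio of Dicer-cKO to LD lay between 0.321 and 5.27 over the scalings. The ratio to wild type was 4.07 (3.80 to 4.36) after LD, with 2.04 to 10.4 over the scalings, and 8.94 (8.35 to 9.59) in Dicer-cKO glia, with 1.65 to 36.8 over the scalings. The ratio of the cluster sum to miR-124 was 0.480 (0.433 to 0.531) in wild type glia, 0.189 (0.172 to 0.208) after LD and 0.442 (0.413 to 0.473) in Dicer-cKO glia. Relative to miR-124, the cluster in Dicer-cKO glia was at 0.920 (0.815 to 1.04) times its wild type value. Choosing the miR-124 row by its largest Dicer-cKO ratio also affects the size of this value, so it cannot show whether both changed equally. After LD the cluster was at 0.394 (0.343 to 0.454) times its wild type value relative to miR-124. Taking the miR-124 row only among rows higher after LD can lower this value too. The individual members differed here, since relative to miR-124 miR-96 was at 1.35 (1.15 to 1.59) and miR-183 at 0.558 (0.474 to 0.660) times the wild type value in Dicer-cKO glia.

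**Figure D4:**
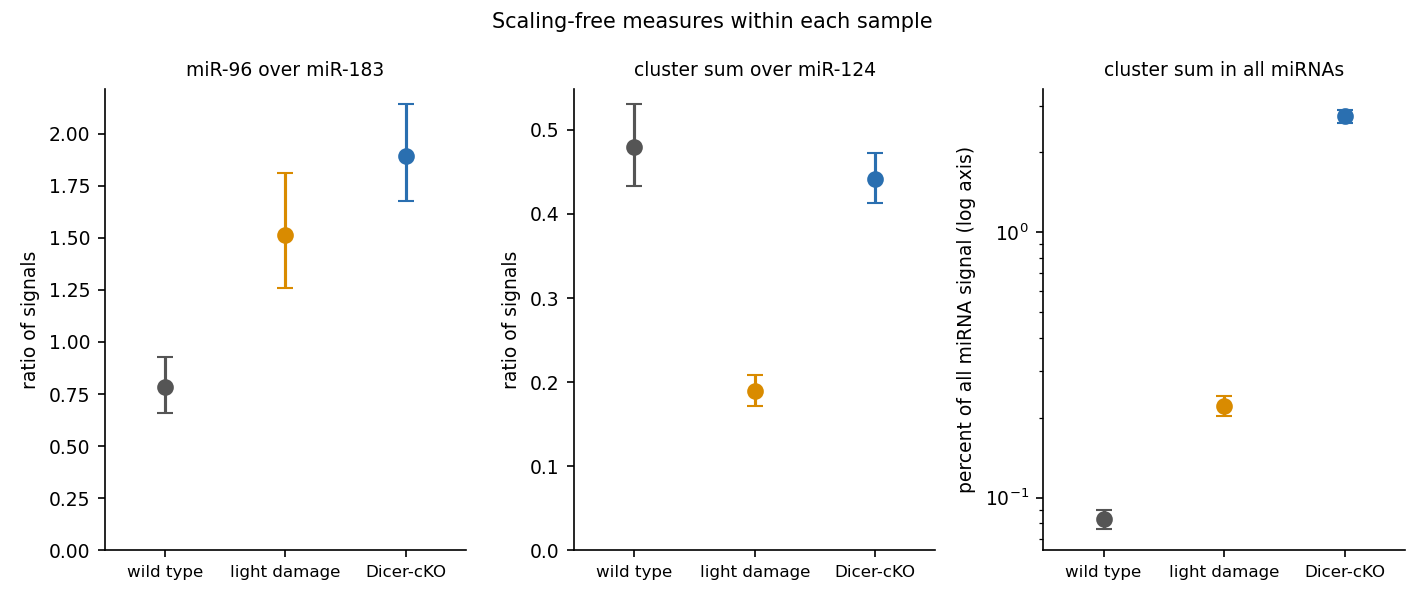
Ratio of miR-96 to miR-183, ratio of the cluster sum to miR-124, and percent of the cluster sum in all miRNA signal (log axis) within each sample, with 95% counting intervals. The first ratio is lowest in wild type glia (0.785), the second is lowest after LD (0.189), and the share is highest in Dicer-cKO glia (2.73%).

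The miRNAs whose pair of log2 ratios lay nearest to that of the cluster sum were sought among the other 102 miRNAs with a mean signal of at least 100. The nearest was MIMAT0000233, at a distance of 0.53 log2 units, with signals of 64 in wild type glia, 87 after LD and 379 in Dicer-cKO glia. It was followed by MIMAT0000154, at 1.08 units, with 216, 296 and 856. miR-124 was the third, at 1.35 units, and the 5 nearest all lay within 1.57 units. The likeness is by this choice and was loose beyond the first ones, since the 5 ratios of LD to wild type ran from 0.638 to 4.76, with 1 of the 5 below 1, against 1.60 for the cluster, all as deposited. Over the scalings, between 2 and 5 of the 5 were higher after LD. MIMAT0000233 passed the limit on low values only through the Dicer-cKO sample, since its mean over the other samples was 75.5.

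The photoreceptor origin of the cluster could not be checked against photoreceptor mRNAs, nor the identity of the sorted cells against MG mRNAs, as the 4 housekeeping mRNAs were the only mRNAs in this table, and the study's other mRNA data were not analysed here. In these pooled samples, cluster RNA carried along from photoreceptors and cluster RNA made within MG cannot be told apart, nor can more cells carrying it from more RNA per cell. The part of strain and sort in the differences between samples was not tested.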

How the data were processed

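The authors deposited 1 table of 626 rows for the 3 samples (602 miRNAs, 4 housekeeping mRNAs, 14 ERCC rows and 6 nmiR rows), whose values are a signal, namely nCounter counts that the authors corrected with negative and positive controls and scaled to the housekeeping mRNAs. No aligner or genome was involved. The 8 lowest ERCC rows were taken as negative controls. The scaling factors were recovered from the rows that keep decimals, and dividing by them gave the counts before scaling. These counts, already corrected for background, were rounded to whole numbers. Clopper-Pearson, Poisson and conditional odds ratio intervals (95%) were computed from them. The ratio intervals were tested on simulated Poisson counts, without background subtraction and only at expected counts of at least 100. That test therefore covers neither the error of the background nor low counts such as those of miR-182. Ratios used no pseudocount. miRNAs with a mean signal of at least 100 formed the background, called at 2-fold, and the 23 abundant miRNAs had a wild type signal of at least 3000.

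The members and lists were chosen with earlier results of these data known. The rule for named miRNAs took the members, their other arms, miRNAs sharing their seed, miR-124, miR-204, miR-211, miR-720, lists of cell type markers (neurons, MG, immune cells, red blood cells, vessels, epithelium) and the 5 nearest patterns. The table lists identifiers without names or arms, and the reference used here does not pair them, so only the members, named by the rule, and miR-124 could be named. miR-124 was taken as the row, among the 5 rows that were higher after LD and had an LD signal of at least 5000, with the largest ratio of Dicer-cKO to wild type (8.94), because the study's text names it as rising under both conditions. Of these 5 rows 3 were above wild type in Dicer-cKO glia, at ratios of 8.94, 1.19 and 1.15, and the rest were below it, at 0.465 and 0.459. The marker lists are therefore not reported, and at most 2 unnamed identifiers are printed. All 3 members matched the RefSeq table of mature miRNAs by name, with the arm assumed, and the 4 mRNAs by accession. Tamoxifen was given for a day longer in the study's methods than in the labels. The alternatives comprised 11 scalings, other backgrounds, pseudocounts, limits and summaries of the members. The scripts ran under Python 3.11.15 with scipy 1.17.1, numpy 2.4.6, matplotlib 3.10.9 and pandas 2.3.3.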

Additional observations from a re-analysis of the deposited data

How the results depend on the processing

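No paired analysis was possible because a condition held only 1 sample. The sum in LD over wild type glia (1.60) was 2.68 at the same total miRNA signal, 4.12 at the same total without the row highest after LD, 2.10 with the 100 highest miRNAs, 2.71 with the median of ratios, 1.36 with Actb, 3.37 with Gapdh and 2.10 with the nmiR rows. It fell below 1 with Rpl19 (0.937), without scaling (0.910) and with the ERCC rows (0.803), and without scaling its interval included 1. The sum in Dicer-cKO over wild type glia (8.23) was, in the same order from the same total to Gapdh, 33.0, 33.9, 16.9, 22.4, 7.83 and 10.6, and it was 6.36 with B2m, 2.15 without scaling, 1.52 with the ERCC rows, 1.57 with the nmiR rows and 6.87 with a pseudocount of 50. In Dicer-cKO over LD glia (5.13) it was, from the same total to B2m, 12.3, 8.22, 8.06, 8.26, 5.77, 3.13, 9.29 (Rpl19) and 4.13, then 2.36 without scaling, 1.89 with the ERCC rows and 4.61 with the pseudocount of 50, and it turned with the nmiR rows (0.750). The geometric mean of the members, which rests on miR-182 near the floor, gave 1.36, 14.6 and 10.8 in the 3 comparisons. Leaving out miR-183 gave 2.19 and 12.3 over wild type, and leaving out miR-96 gave 1.14 and 5.25 over wild type and 4.60 over LD. miR-183 fell slightly below 1 in Dicer-cKO over wild type glia with the ERCC rows (0.919) and the nmiR rows (0.953), without an interval. In Dicer-cKO over LD glia it turned with the nmiR rows (0.639), as did miR-96 (0.801). The share of the cluster moved to 0.352% after LD and 2.90% in Dicer-cKO glia without the row highest after LD. The ratio of miR-96 to miR-183 kept its direction between all samples when 10 more counts or the highest negative control were subtracted, the latter chosen after seeing the data. In all, 27 alternative values of the sum, the share and this ratio, some of them given above, lay within the counting interval of the value as deposited. Another 38 lay outside it without a change of direction, and 4, all of the sum, fell from above 1 to below 1. A limit of 30 on the mean signal raised the share of miRNAs at least 2-fold higher in Dicer-cKO over LD glia from 12.5% to 25.8%, and at 3-fold it was 6.73%. Counting error limits miR-182 the most, with 23.6 counts in Dicer-cKO glia and fewer elsewhere.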
